A study of Mus musculus with 14 samples.

Results

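The smooth muscle contractile genes followed here are Acta2, Tagln, Myh11, Cnn1, Myl9, Myocd, Lmod1, Smtn and Mylk, taken by name and looked up through their Ensembl identifiers. All 9 were found among the 36047 genes that each deposited count table lists. Smooth muscle shortens when myosin pulls on actin filaments. Calcium bound to calmodulin activates myosin light chain kinase, which phosphorylates the regulatory light chain of myosin and a phosphatase reverses that step. Transcription of the contractile genes is driven by serum response factor (SRF), which binds a DNA element called the CArG box, together with its coactivator myocardin. Acta2 and Tagln are also made by embryonic heart muscle and by activated fibroblasts, and Myocd by heart muscle, whereas Myh11 is the member most restricted to smooth muscle.

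The RNA came from mouse embryoid bodies, clumps in which embryonic stem cells differentiate, grown in medium that favours mesoderm. The control line is iHA-Foxk1 by the titles of days 3 and 5, which add ND, a code not interpreted here. The day 10 titles say only Control. The compared line carries a Foxk1 knockout (KO), Foxk1 being a forkhead transcription factor. Control and KO were sampled at days 3, 5 and 10, and a further day 10 group labelled KO received IWR1, a tankyrase inhibitor that dampens canonical Wnt signalling, which makes 7 groups of 2 libraries. Both lines were kept on irradiated mouse embryonic fibroblast feeders, which were removed by plating before differentiation. The sources used here do not give the knocked-out allele, whether each line is a single clone, or the dose and timing of IWR1. The labels show no more than a single line of each kind and do not name the day 10 control line. The Foxk1 knockout and any other difference of the lines therefore cannot be told apart. Nor do the labels say that the 2 libraries of a group were separate cultures, so p-values here reflect variation among these samples only, possibly technical.

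The members build successive layers of the contractile apparatus, and their positions are those of the mm10 build. Acta2 (chromosome 19, 34241090 to 34255590, minus strand) encodes smooth muscle alpha-actin, the main actin of the thin filament. Tagln (chromosome 9, 45929619 to 45936058, minus strand) encodes transgelin, and Cnn1 (chromosome 9, 22099216 to 22109630, plus strand) encodes calponin 1, both of which bind actin. Lmod1 (chromosome 1, 135324807 to 135368065, plus strand) encodes leiomodin 1, which starts new actin filaments, and Smtn (chromosome 11, 3517523 to 3540612, minus strand) encodes smoothelin, a protein of the smooth muscle cytoskeleton. Myh11 (chromosome 16, 14194535 to 14291372, minus strand) encodes the smooth muscle myosin heavy chain, Myl9 (chromosome 2, 156775420 to 156781658, plus strand) a regulatory myosin light chain, and Mylk (chromosome 16, 34745210 to 35002420, plus strand) the kinase that phosphorylates that chain. Myocd (chromosome 11, 65176561 to 65269989, minus strand) encodes myocardin.

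RefSeq start sites on GRCm38.p6 were at hand for 6 of the 9 members, Acta2, Cnn1, Lmod1, Myl9, Smtn and Mylk. The 250 bases upstream of each were searched for the CArG box, which is CC, then 6 bases that are A or T, then GG, and reads alike on both strands. The 4 windows below are shown because Acta2, Lmod1 and Myl9 hold such elements and Cnn1, the member called in all 8 comparisons, holds none. Capitals mark a CArG box, exact or with 1 mismatch, and each window runs 5′ to 3′ on the strand of its gene. They lie at chr19:34255374-34255623 on the minus strand for Acta2, chr1:135324563-135324812 on the plus strand for Lmod1, chr2:156775214-156775463 on the plus strand for Myl9 and chr9:22099003-22099252 on the plus strand for Cnn1.
Acta2: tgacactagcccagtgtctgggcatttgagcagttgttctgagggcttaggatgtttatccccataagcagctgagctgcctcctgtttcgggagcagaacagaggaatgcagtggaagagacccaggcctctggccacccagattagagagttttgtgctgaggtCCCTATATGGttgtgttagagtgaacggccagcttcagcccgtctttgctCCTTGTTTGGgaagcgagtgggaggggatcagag
Lmod1: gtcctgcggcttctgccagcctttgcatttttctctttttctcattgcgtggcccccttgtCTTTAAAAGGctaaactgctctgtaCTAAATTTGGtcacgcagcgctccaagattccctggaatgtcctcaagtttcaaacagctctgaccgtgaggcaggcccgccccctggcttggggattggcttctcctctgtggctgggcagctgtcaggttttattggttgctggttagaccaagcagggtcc
Myl9: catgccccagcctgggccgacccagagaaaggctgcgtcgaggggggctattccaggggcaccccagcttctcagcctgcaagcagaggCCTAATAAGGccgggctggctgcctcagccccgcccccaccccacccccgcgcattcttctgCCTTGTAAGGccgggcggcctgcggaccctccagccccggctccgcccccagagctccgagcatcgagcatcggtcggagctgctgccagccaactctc
Cnn1: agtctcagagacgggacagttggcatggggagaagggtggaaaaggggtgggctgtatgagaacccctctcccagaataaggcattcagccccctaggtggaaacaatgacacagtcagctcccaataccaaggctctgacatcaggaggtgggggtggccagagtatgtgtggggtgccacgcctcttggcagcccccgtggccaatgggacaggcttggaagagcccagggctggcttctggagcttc

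The Myl9 window held an exact box, CCTAATAAGG, beginning 161 bases upstream of the start, and a box with 1 mismatch, CCTTGTAAGG, beginning 99 bases upstream. The Acta2 window held CCCTATATGG at 84 bases and CCTTGTTTGG at 34 bases upstream, each with 1 mismatch. The Lmod1 window held CTTTAAAAGG at 189 bases and CTAAATTTGG at 164 bases upstream, again with 1 mismatch each. The windows of Cnn1, Smtn and Mylk held no run of these letters, which says nothing of sites elsewhere. Of 32851 windows of the same length in the table, 1.47% held an exact box and 18.6% a box with at most 1 mismatch, against 1 of 6 and 3 of 6 members.

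Depth sufficed for most members, but not for Myh11 at days 3 and 5. Totals of estimated counts ran from 10574194 to 11621032 in the earlier libraries and from 34466708 to 52747273 in the day 10 libraries. Levels are in CPM, counts scaled to library size. A count of 0 allows up to 3 counts, equal to 0.254 to 0.298 CPM in the earlier table and 0.0621 to 0.0827 CPM in the later, counting error only. Foxk1 itself was at 76.4 to 86.3 CPM in control and 16.2 to 16.5 CPM in KO at day 3, and at 133 to 134 CPM against 33.6 to 38.2 CPM at day 5. At day 10 it was at 65 to 80.1 CPM in control, 41.8 to 71.3 CPM in the libraries labelled Foxk1 KO and 26.4 to 52.9 CPM in those labelled Foxk1 KO with IWR1. The control and KO libraries thus overlapped at day 10, so directions at that day rest on the labels alone. Day 5 KO libraries differed more between themselves than the other early pairs, by chi-square per degree of freedom (20.4 against 1.87 to 3.91). At day 10 this value was 51.9 in control, 160 in KO and 149 in KO with IWR1. The day 10 libraries were deeper, and the value can grow with depth. Library 1 of day 5 KO held more endothelial marker RNA (575 against 216 CPM, summed over 8 genes) and more fibroblast marker RNA (2490 against 1210 CPM, summed over 12 genes) than library 2.

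Which members were abundant changed with the day. Per kilobase of exon, the day 3 control was led by Tagln at 26.6 to 29.8 CPM per kilobase, followed by Smtn at 12.8 to 13.4, with Acta2 the fifth at 0.962 to 1.52. In the day 5 control Acta2 led at 272 to 333 CPM per kilobase, above Tagln at 22.6 to 24. In the day 10 control Acta2 led at 145 to 146 CPM per kilobase, followed by Myl9 at 109 to 119 and Tagln at 43.5 to 48.8. There the library ranges of no neighbours in the order overlapped, in 0 of 8 pairs, whereas 4 of 8 pairs overlapped in the day 3 control, namely Myl9 with Cnn1 and each of the 4 lowest members with its neighbour. The libraries labelled KO at day 10 kept Acta2 and Tagln on top, at 224 to 233 and 90.2 to 118 CPM per kilobase, with Myl9 the third at 15.3 to 16.7 and overlapping Smtn. Myocd stood last there at 0.243 to 0.37 CPM per kilobase, overlapping Myh11. Days 3 and 5 were deposited apart from day 10, so levels across the tables are set side by side without a test. In bulk RNA, fewer cells of a type and less RNA per cell cannot be told apart.

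**Figure D1:**
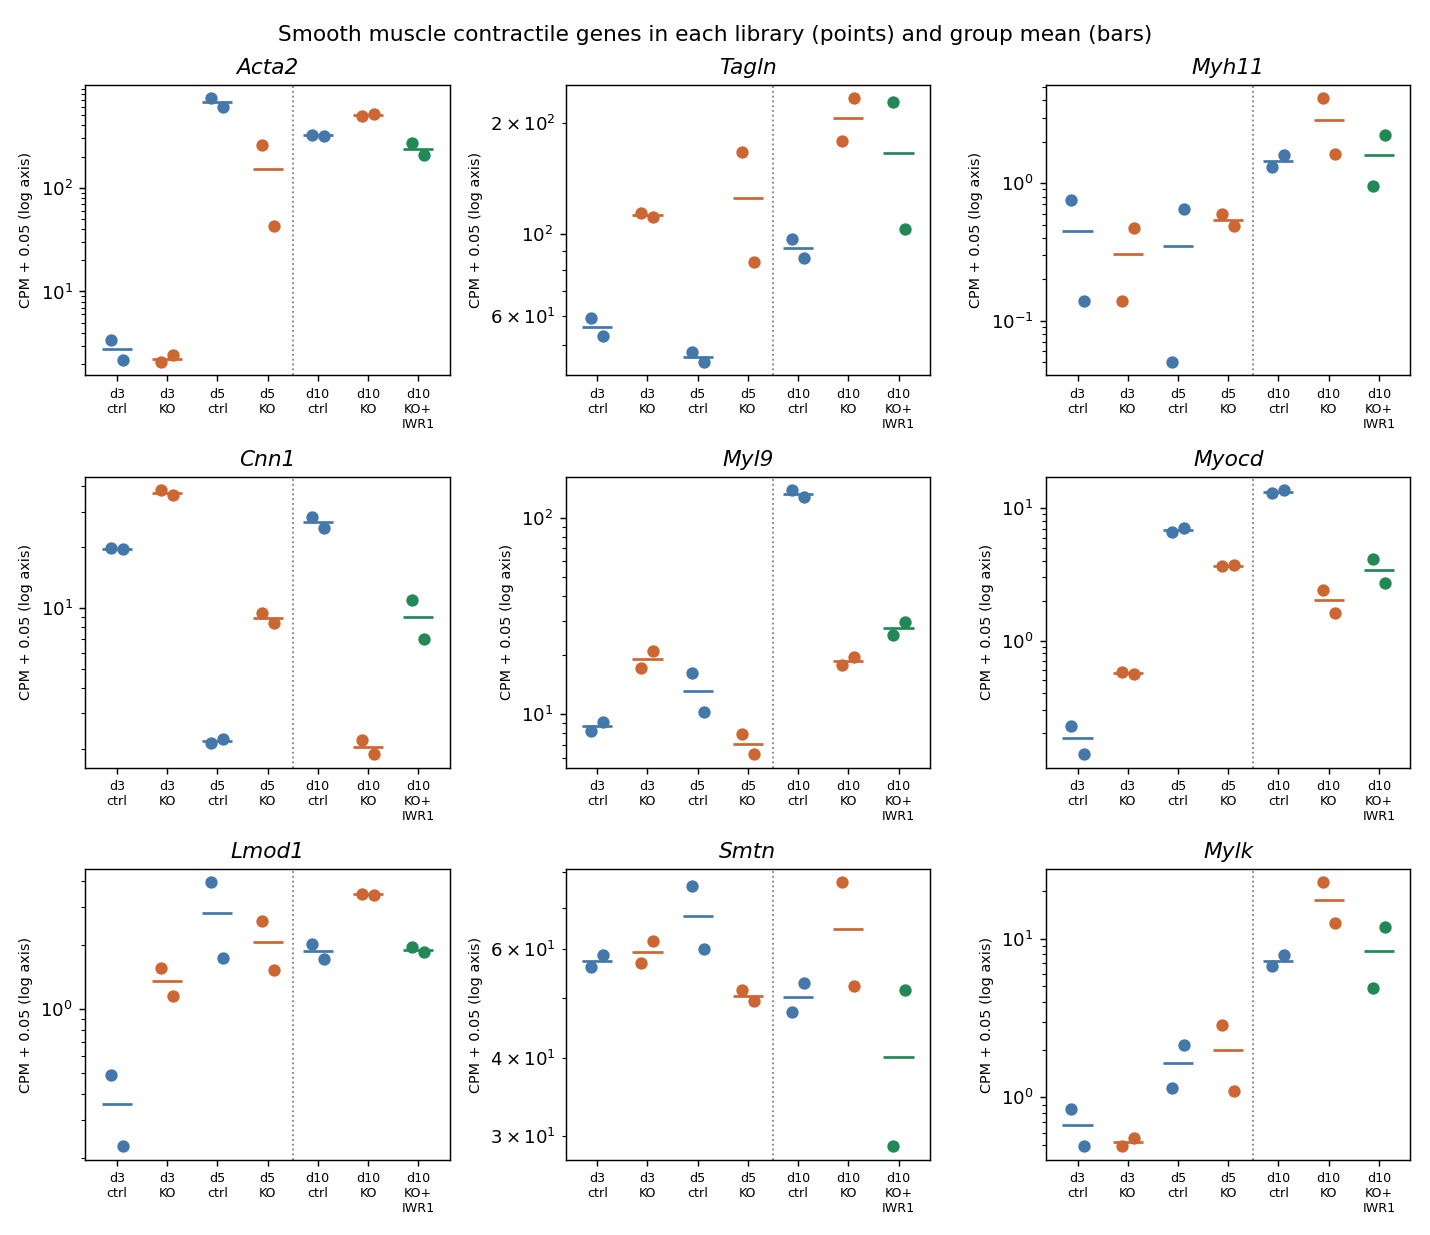
Each panel plots 1 member in all 14 libraries, as CPM plus 0.05 on a log axis whose range differs between panels; points are libraries, bars are means of 2 libraries, and the dotted line parts the separately deposited tables. Acta2 goes from 2.11 and 3.35 CPM in the day 3 control to 597 and 732 CPM in the day 5 control, and Cnn1, Myl9 and Myocd stand lower in both KO-labelled groups than in control at day 10.

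Myh11 was barely detected at days 3 and 5 and stayed low at day 10. At days 3 and 5 it had 0 to 0.704 CPM in the 8 libraries, including 0 in library 1 of the day 5 control, and it failed the filter on low counts. At day 10 it had 1.26 and 1.54 CPM in control, 4.10 and 1.59 CPM in the libraries labelled KO, and 0.911 and 2.20 CPM in those labelled KO with IWR1. The day 10 groups overlapped, apart from control against KO, whose nearest libraries lay at 1.54 and 1.59 CPM. No Myh11 difference was called in the comparisons of day 10, which alone tested it. The gene that best marks mature smooth muscle was thus last or next to last per kilobase in each of the 7 groups.

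At day 3, calponin 1 and the regulatory light chain were higher in KO embryoid bodies. A call means a Benjamini-Hochberg adjusted p below 0.05 over all genes tested, from edgeR's quasi-likelihood test, and fold changes are log2 values ± SE. Of the 8 members tested, 2 were higher and 0 lower, 25% called, beside 32.9% of all genes tested (16% higher and 16.9% lower), so the share of members called was no larger than the background. Cnn1 was at 19.7 and 19.5 CPM in control and 38.2 and 36.1 CPM in KO (0.92 ± 0.11, adjusted p = 0.000273). Myl9 was at 8.19 and 9.07 CPM in control and 17.1 and 21.0 CPM in KO (1.14 ± 0.23, adjusted p = 0.00453). Both KO libraries lay above both control libraries for each gene. The Myl9 call ended without control library 1 (adjusted p = 0.0532) or without KO library 2 (adjusted p = 0.0548), which left 1 member called.

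Several other members differed at day 3 without being called. Tagln was at 59.2 and 52.9 CPM in control and 114 and 111 CPM in KO, with no overlap (1.01 ± 0.33, adjusted p = 0.0777). DESeq2 called it (adjusted p = 6.91e-05). Of the 1983 words of 31 bases in Tagln transcripts, 3.93% also occur in Pcsk7, a convertase gene that overlaps Tagln on the genome, so part of its count is uncertain. Lmod1 was at 0.440 and 0.176 CPM in control and 1.5 and 1.1 CPM in KO, from few counts (2.04 ± 0.70, adjusted p = 0.0506). Myocd had 3 counts over both control libraries and 12 over both KO libraries, a ratio of 3.93 with a 95% counting interval of 1.06 to 21.7, and was not called (adjusted p = 0.0532). These genes stood higher in both KO libraries with 95% intervals above 0, and missed the threshold only after adjustment over all genes (unadjusted p = 0.0295 for Tagln, 0.0167 for Lmod1 and 0.0178 for Myocd, from edgeR). Acta2, at 3.35 and 2.11 against 2.03 and 2.37 CPM, Smtn, at 56.2 and 58.6 against 57.0 and 61.7 CPM, and Mylk, at 0.792 and 0.440 against 0.442 and 0.507 CPM, overlapped between the groups. The interval for Smtn ran from -0.19 to 0.29 on the log2 scale, and that for Acta2 from -6.45 to 5.83.

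By day 5 the members had moved apart, with Cnn1 and Tagln higher in KO and the light chain, smoothelin and myocardin lower. Of 8 tested, 2 were higher and 3 lower, 62.5% called beside 43.5% of all genes tested (21.9% higher and 21.7% lower). Cnn1 was at 2.08 and 2.19 CPM in control and 9.39 and 8.38 CPM in KO (2.05 ± 0.17, adjusted p = 1.88e-05). Tagln was at 47.7 and 44.9 CPM in control and 167 and 84.1 CPM in KO (1.44 ± 0.34, adjusted p = 0.0241). For both, all KO libraries lay above all control libraries, with the KO libraries of Tagln far apart. Myl9 fell from 16.1 and 10.2 CPM in control to 7.86 and 6.20 CPM in KO (-0.90 ± 0.24, adjusted p = 0.0134). Smtn fell from 75.9 and 59.9 CPM to 51.5 and 49.4 CPM (-0.43 ± 0.11, adjusted p = 0.0102). Myocd, the coactivator, fell from 6.54 and 7.05 CPM to 3.61 and 3.66 CPM (-0.90 ± 0.27, adjusted p = 0.025), again with no overlap, though DESeq2 did not call it (adjusted p = 0.226).

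The largest difference in level at day 5, that of Acta2, was not called. Its control libraries held 732 and 597 CPM, KO library 1 held 258 CPM and KO library 2 held 42.7 CPM. Both KO libraries lay below both control libraries, and in ratio they differed from each other by more than KO library 1 differed from control (-2.14 ± 0.83, adjusted p = 0.108). Without KO library 1 the difference was -3.96 (adjusted p = 0.000455) and without KO library 2 it was -1.37 (adjusted p = 0.00445). Lmod1, at 3.87 and 1.69 against 2.53 and 1.48 CPM, and Mylk, at 1.09 and 2.09 against 2.80 and 1.05 CPM, overlapped and were not called (adjusted p = 0.473 and 0.721). Leaving out 1 library at a time gave 1 to 6 members called. Without control library 1 only Cnn1 remained called, with Tagln at adjusted p = 0.0989, Myl9 at 0.133, Smtn at 0.0856 and Myocd at 0.0877. Without control library 2, Tagln (adjusted p = 0.106) and Myocd (adjusted p = 0.121) were lost. A fit to the day 5 libraries alone left 2 members called, Cnn1 and Myocd, with Tagln at adjusted p = 0.0632, Myl9 at 0.0589 and Smtn at 0.0534.

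**Figure D2:**
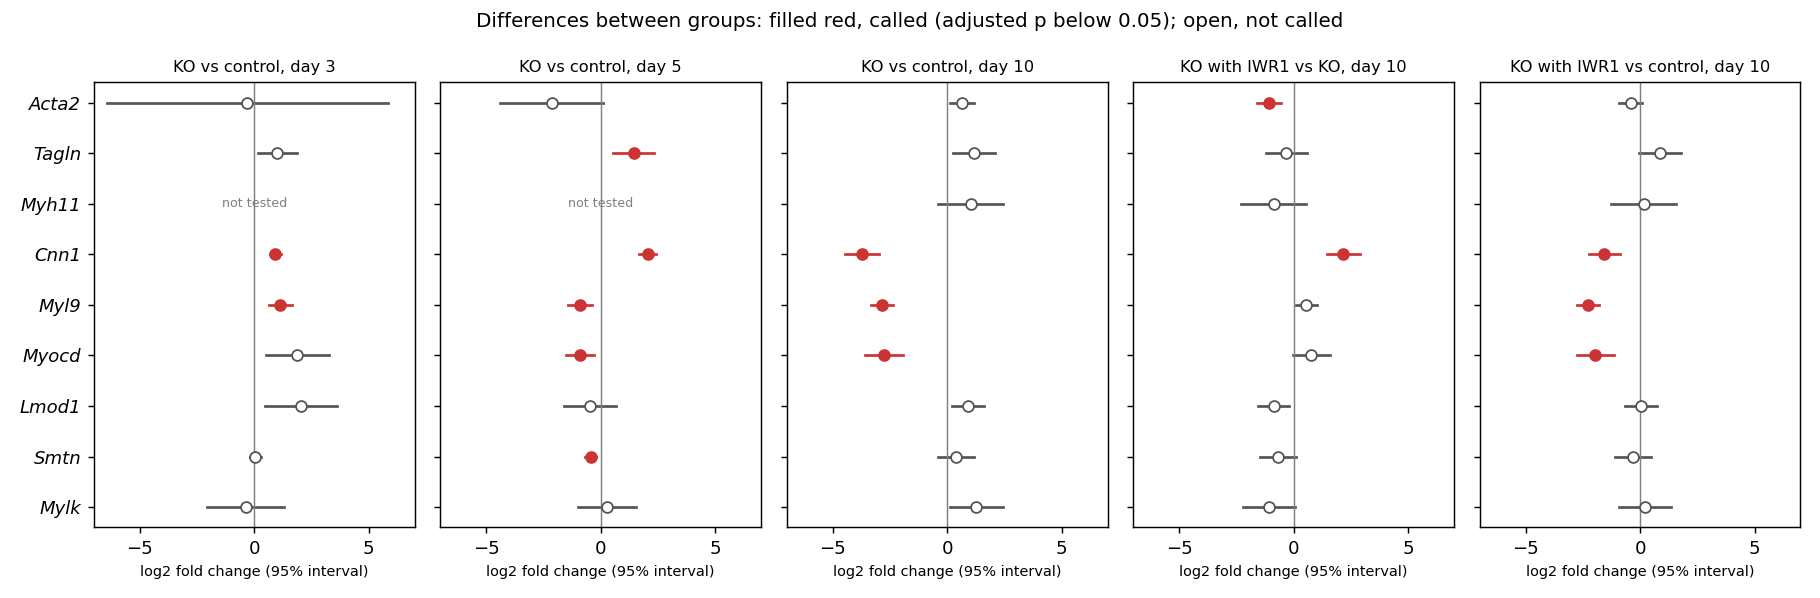
Log2 fold changes of the members with 95% intervals in the comparisons between groups of 1 day; filled red points are called and open points are not. Cnn1 is called in all 5 panels, higher in KO at days 3 and 5 and lower at day 10, and the intervals of Acta2 are widest at days 3 and 5.

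From day 3 to day 5, 4 of the 8 tested members rose in the control, among them smooth muscle actin and myocardin, while calponin 1 fell. In control 4 were higher and 1 lower at day 5, 62.5% called beside 60.8% of all genes tested (30.6% higher and 30.2% lower), a share near the background. Acta2 rose from 3.35 and 2.11 CPM to 732 and 597 CPM (7.92 ± 1.28, adjusted p = 0.00606). Myocd went from 3 counts over both day 3 libraries to 137 over both day 5 libraries, a ratio of 51.5 with a counting interval of 17.2 to 253 (adjusted p = 6.09e-06). Lmod1 rose from 0.440 and 0.176 CPM to 3.87 and 1.69 CPM (3.13 ± 0.65, adjusted p = 0.00241). All day 5 libraries of these members lay above all day 3 libraries. Cnn1 fell by 3.19 ± 0.16 on the log2 scale (adjusted p = 4.2e-07). Myl9 rose by 0.61 ± 0.23 (adjusted p = 0.047), a call lost without day 3 control library 1 (adjusted p = 0.199) or 2 (0.114), without day 5 control library 1 (0.432), and with DESeq2 (0.112). Tagln, Smtn and Mylk were not called, and Smtn was called without day 5 control library 2 (0.40, adjusted p = 0.00777).

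In KO embryoid bodies the same interval gave 3 members higher and 2 lower, 62.5% called beside 53.8% of all genes tested (28.3% higher and 25.5% lower), again near the background. Acta2 rose from 2.03 and 2.37 CPM to 258 and 42.7 CPM (6.09 ± 1.33, adjusted p = 0.0189). Myocd rose from 0.531 and 0.507 CPM to 3.61 and 3.66 CPM (2.78 ± 0.36, adjusted p = 0.000196). Mylk, the light chain kinase, rose from 0.442 and 0.507 CPM to 2.80 and 1.05 CPM (1.99 ± 0.65, adjusted p = 0.0269). Every day 5 library of these genes exceeded every day 3 library. Cnn1 fell by 2.06 ± 0.12 on the log2 scale (adjusted p = 1.66e-06) and Myl9 fell by 1.44 ± 0.23 (adjusted p = 0.000711). The Acta2 call was lost without day 3 KO library 1 (adjusted p = 0.0839) or 2 (0.083), and the Mylk call without day 3 KO library 1 (0.132) or 2 (0.112), without day 5 KO library 1 (0.216), with DESeq2 (0.0891) and in a fit to these groups alone (0.0517). Tagln was not called (0.15 ± 0.32), and it turned to -0.42 without day 5 KO library 1 (adjusted p = 1.98e-05) and to 0.54 without day 5 KO library 2 (adjusted p = 4.5e-08).

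The difference between KO and control changed from day 3 to day 5 for 4 of 8 members, 50% beside 24.2% of all genes tested, by an interaction term. Of these 1 was higher and 3 lower, beside 13.4% and 10.8% of all genes. The KO difference of Cnn1 grew by 1.13 ± 0.20 on the log2 scale (adjusted p = 0.00382), from 0.92 at day 3 to 2.05 at day 5. That of Myl9 turned from 1.14 to -0.90, a change of -2.05 ± 0.33 (adjusted p = 0.00209). Myocd changed by -2.79 ± 0.67 (adjusted p = 0.015), a value that rests on 3 control counts at day 3, and Smtn by -0.48 ± 0.15 (adjusted p = 0.0464). The Cnn1 and Myl9 calls held with each library left out. The Myocd call was lost without day 3 control library 2 (adjusted p = 0.0722) or day 3 KO library 1 (0.0549) or 2 (0.0506). Smtn fell short of the threshold when a day 3 library was left out, whichever it was (adjusted p from 0.0928 to 0.174) or without day 5 control library 1 (0.148). DESeq2 called neither Myocd (adjusted p = 0.085) nor Smtn (0.113). Lmod1 (-2.51 ± 0.86, adjusted p = 0.0626) was called without day 5 control library 2 (0.0444) or day 5 KO library 1 (0.00743) or 2 (0.0381), Acta2 without day 5 KO library 1 (-3.65, adjusted p = 0.0472), and Tagln without day 5 KO library 2 (0.81, adjusted p = 9.65e-08).

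Smooth muscle actin belongs to a family with Actg2, the gamma-actin of smooth muscle, Actc1, the cardiac actin, and Acta1, the skeletal actin. Per kilobase, Acta2 made up 13 and 8.62% of these transcripts in the day 3 control and 98 and 98.2% in the day 5 control. In day 5 KO its share was 87.2 and 51.1%, and Acta1 took most of the remainder. Acta1 stood at 1.39 and 0.795 CPM in the day 5 control and at 22.3 and 26.5 CPM in KO (4.47 ± 0.26, adjusted p = 2.25e-06), with no overlap. At day 10 Acta2 made up 13.7 and 16.2% in control, 85.4 and 84.4% in the libraries labelled KO and 56.5 and 52.8% in those labelled KO with IWR1. Actc1 was at 1460 and 1190 CPM in the day 10 control, 9.51 and 30.3 CPM in KO and 131 and 124 CPM in KO with IWR1, and its fall in KO was called (-6.05 ± 0.61, adjusted p = 0.00847). The counts of the 4 actins summed were lower in KO at day 10 (-1.56, adjusted p = 0.022), opposite in sign to Acta2 itself. Of the words of 31 bases in Acta2 transcripts 1.39% occur elsewhere, almost all of them in the predicted gene Gm6375.

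**Figure D3:**
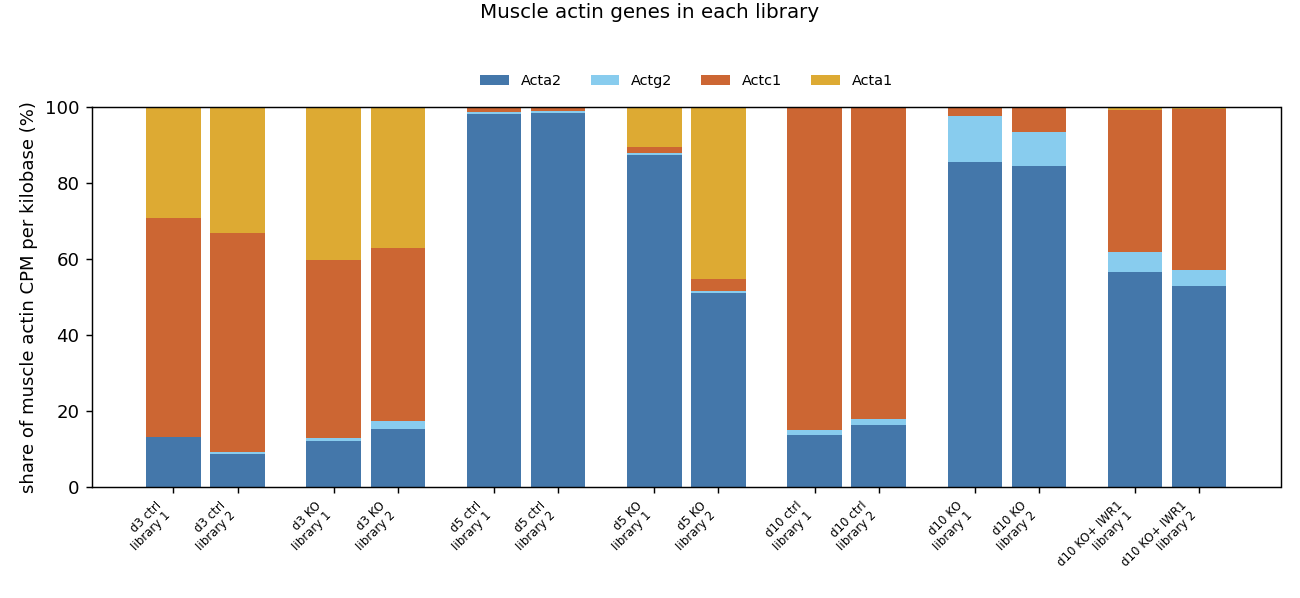
Shares of the 4 muscle actin genes in each library, in percent of their summed CPM per kilobase; each bar is 1 library. Acta2 fills 98 and 98.2% of the day 5 control bars and 13.7 and 16.2% of the day 10 control bars, where Actc1 takes most of the rest.

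At day 10, calponin 1, the regulatory light chain and myocardin were lower in the libraries labelled KO, and the actin, transgelin, leiomodin and kinase genes stood higher without being called. Of 9 members tested 0 were called higher and 3 lower, 33.3% beside 5.27% of all genes tested. Of all genes 1.92% were called higher and 3.35% lower. Cnn1 was at 28.2 and 24.7 CPM in control and 2.16 and 1.83 CPM in KO, 13.2-fold lower (-3.73 ± 0.31, adjusted p = 0.00562). Myl9 was at 138 and 127 CPM in control and 17.8 and 19.4 CPM in KO, 7.12-fold lower (-2.83 ± 0.20, adjusted p = 0.00406). Myocd was at 12.9 and 13.6 CPM in control and 2.38 and 1.56 CPM in KO, 6.7-fold lower (-2.74 ± 0.35, adjusted p = 0.0126). The groups lay wide apart for all 3. The Cnn1 and Myl9 calls held with each library left out, and the Myocd call was lost without control library 1 (adjusted p = 0.0796) or 2 (0.0666).

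The uncalled members of day 10 mostly lay above control. Acta2 was at 320 and 319 CPM in control and 493 and 511 CPM in KO, with no overlap (0.65 ± 0.22, interval 0.13 to 1.17, adjusted p = 0.153). Tagln was at 97.1 and 86.4 CPM in control and 179 and 234 CPM in KO (1.17 ± 0.38, adjusted p = 0.145), and DESeq2 called it (adjusted p = 0.0269). Lmod1 was at 1.96 and 1.67 CPM in control and 3.40 and 3.39 CPM in KO (0.90 ± 0.29, adjusted p = 0.141). Both KO libraries exceeded both control libraries for each of these thin-filament genes. Mylk was at 6.62 and 7.79 CPM in control and 22.5 and 12.4 CPM in KO, again without overlap (1.28 ± 0.48, adjusted p = 0.2). Smtn, at 47.4 and 52.9 against 76.8 and 52.3 CPM, overlapped (0.36 ± 0.33, interval -0.42 to 1.15, adjusted p = 0.648). Myh11 differed by 1.03 ± 0.60 (adjusted p = 0.425).

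Shares within gene families shifted at day 10 and are given as description. Cnn1 made up 6.56 and 5.81% of calponin transcripts per kilobase in the day 10 control, 0.469 and 0.38% in KO and 1.58 and 1.22% in KO with IWR1. Its relative Cnn2, a calponin of non-muscle cells, stood at 126 and 123 CPM in control and 184 and 186 CPM in KO. Myocd made up 14.4 and 11.9% of the myocardin family in control, 2.36 and 2.79% in KO and 10.8 and 4.26% in KO with IWR1, with Mrtfa and Mrtfb as the other coactivators of SRF. Myl9 counts summed with those of Myl12a and Myl12b, its closest relatives, gave no call (0.14, adjusted p = 0.852), opposite in sign to Myl9 itself. Mylk made up 10.3 and 12.2% of the myosin light chain kinases in control and 70.5 and 49% in KO, beside a fall of the cardiac kinase Mylk3 from 21.6 and 21.0 CPM to 3.25 and 4.87 CPM (-2.39 ± 0.28, adjusted p = 0.0108).

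Markers of heart muscle, connective tissue, the epicardium and epithelium also differed between the groups at day 10. Of all genes tested, 5.27% were called between KO and control (1.92% higher and 3.35% lower). The 13 cardiomyocyte markers summed to 3870 to 4680 CPM in control, 163 to 378 CPM in the libraries labelled KO and 409 to 559 CPM in those labelled KO with IWR1. Of the 13, 11 were called lower in KO (84.6%). The 12 fibroblast and mesenchyme markers summed to 9460 to 10300 CPM in control, 23100 to 29800 CPM in KO and 2330 to 4820 CPM in KO with IWR1. Of the 12, 2 were called higher in KO (16.7%). The 8 epicardial and mesothelial markers summed to 182 to 192, 692 to 819 and 89.9 to 253 CPM, with 3 of 8 called higher in KO (37.5%). The 8 epithelial and myoepithelial markers summed to 1060 to 1110 CPM in control, 374 to 461 CPM in KO and 263 to 436 CPM in KO with IWR1. Of these, 3 were called lower in KO (37.5%). No marker of these lists was at 0 in both libraries of a day 10 group. The part of these markers in the members' differences was not tested.

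**Figure D4:**
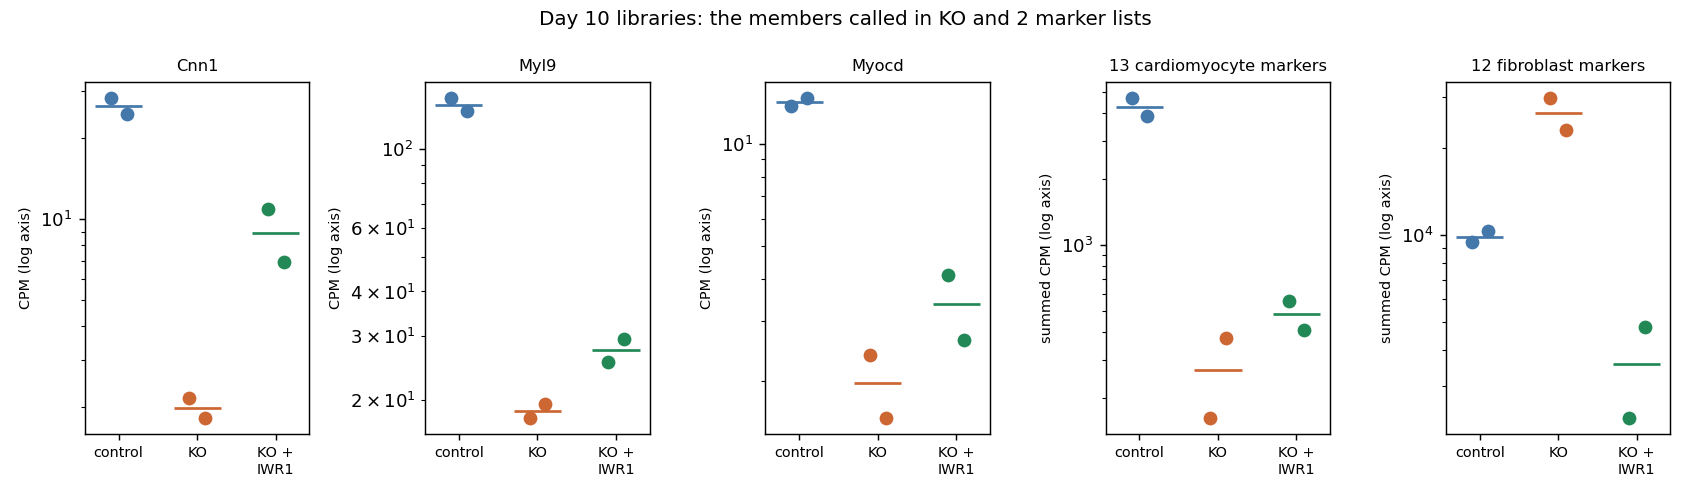
The 3 members called lower in KO at day 10 (CPM, log axis) beside the summed CPM of 13 cardiomyocyte and 12 fibroblast markers (log axis); points are libraries and bars are means of 2. Cnn1, Myl9, Myocd and the cardiomyocyte sum are all highest in control, and the fibroblast sum is highest in the libraries labelled KO.

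Libraries labelled KO with IWR1 held more calponin 1 and less smooth muscle actin than untreated KO libraries. Of 9 members 1 was higher and 1 lower, 22.2% beside 13.9% of all genes tested (5.77% higher and 8.08% lower). Cnn1 was at 2.16 and 1.83 CPM untreated and 10.9 and 6.97 CPM with IWR1, 4.47-fold higher (2.16 ± 0.30, adjusted p = 0.0131), a call that held with each library left out. Acta2 was at 493 and 511 CPM untreated and 269 and 209 CPM with IWR1, 2.1-fold lower (-1.07 ± 0.22, adjusted p = 0.0272). Both genes separated the groups fully. The Acta2 call was lost without any 1 of the 4 libraries (adjusted p from 0.06 to 0.0767), in a fit to these groups alone (0.0731) and with a block for the library number (0.0726). Myl9, at 17.8 and 19.4 against 25.4 and 29.5 CPM, was not called (0.56 ± 0.19, adjusted p = 0.0919). Nor was Myocd, at 2.38 and 1.56 against 4.10 and 2.65 CPM (0.78 ± 0.34, interval -0.03 to 1.59, adjusted p = 0.16).

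The other members gave no call with IWR1. Lmod1 was at 3.40 and 3.39 CPM untreated and 1.90 and 1.79 CPM with IWR1 (-0.87 ± 0.29, adjusted p = 0.0866), without overlap. Mylk was at 22.5 and 12.4 against 4.80 and 11.7 CPM (-1.08 ± 0.48, adjusted p = 0.163) and was called without IWR1 library 2 (-1.86, adjusted p = 0.0431). Tagln, at 179 and 234 against 229 and 103 CPM, and Smtn, at 76.8 and 52.3 against 28.8 and 51.6 CPM, gave adjusted p = 0.58 and 0.196. The Tagln libraries overlapped, and both libraries of Smtn with IWR1 lay below the untreated ones, library 2 by little.

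Set against control, the libraries labelled KO with IWR1 were still lower in Cnn1, Myl9 and Myocd. Of 9 members 0 were higher and 3 lower, 33.3% beside 9.12% of all genes tested (2.99% higher and 6.13% lower). Cnn1 differed by -1.56 ± 0.28 (adjusted p = 0.0241), Myl9 by -2.27 ± 0.20 (adjusted p = 0.00455) and Myocd by -1.97 ± 0.34 (adjusted p = 0.0211), each without overlap. Myl9 was the member whose call held with each library left out. Cnn1 was lost without control library 1 (adjusted p = 0.158) or 2 (0.111), and so was Myocd (0.107 and 0.111). Acta2 (-0.42 ± 0.22, adjusted p = 0.223), Lmod1 (0.03 ± 0.29, interval -0.67 to 0.72), Smtn, Mylk and Myh11 were not called. Tagln was not called either (0.86 ± 0.38, adjusted p = 0.176) but was without IWR1 library 2 (1.32, adjusted p = 0.0357). It shares its IWR1 libraries with the IWR1 comparison above and its control libraries with KO against control.

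Other genes of the smooth muscle cytoskeleton were read from a list of 20. At day 3, 6 were higher in KO and 3 lower, 45% called beside 32.9% of all genes, among them Pdlim7, a LIM protein of actin bundles (1.19 ± 0.08, adjusted p = 4.6e-06), Des, the intermediate filament desmin (1.09 ± 0.16, adjusted p = 0.000886), and the integrin Itga8 (-4.13 ± 0.21, adjusted p = 8.86e-07). At day 5, 6 were higher and 6 lower, 60% beside 43.5%. Synpo2, an actin-binding protein of muscle, fell from 16.7 and 15.9 CPM to 1.08 and 1.83 CPM (-3.47 ± 0.28, adjusted p = 1.6e-05) and Synm, an intermediate filament protein, rose (2.50 ± 0.24, adjusted p = 4.62e-05). At day 10 1 was higher and 2 lower. Cald1, encoding caldesmon of the thin filament, rose from 297 and 326 CPM to 721 and 821 CPM (1.31 ± 0.21, adjusted p = 0.0243), and Ldb3 of the Z-disc (-4.65 ± 0.41, adjusted p = 0.00618) and Synpo2 (-1.96 ± 0.35, adjusted p = 0.0319) fell. With IWR1 0 were higher and 3 lower than in untreated KO: Des (-1.33 ± 0.22, adjusted p = 0.0182), Cald1 (-1.06 ± 0.21, adjusted p = 0.0261) and Vcl, encoding vinculin (-1.01 ± 0.24, adjusted p = 0.0411). Medians of the list were 0.42, -0.21, 0.17 and -0.52 in these comparisons, beside -0.01, 0.01, 0.02 and -0.01 over all genes tested.

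Upstream regulators of myocardin and SRF were read from a list of 20. Of 19 tested at day 3, 0 were higher and 9 lower in KO, 47.4% called beside 32.9% of all genes (16% higher and 16.9% lower). Gata6, a GATA factor of endoderm, heart and smooth muscle, fell from 60.1 and 56.2 CPM to 0.531 and 0.423 CPM (-6.90 ± 0.15, adjusted p = 3.55e-09), beside Tgfb1 (-2.60 ± 0.10, adjusted p = 1.73e-07) and the receptor gene Tgfbr1 (-0.60 ± 0.07, adjusted p = 0.000243). At day 5, 2 were higher and 7 lower, 47.4% called and so near the 43.5% of all genes, with Tgfb2, a TGF-beta ligand, falling from 190 and 173 CPM to 31.9 and 26.9 CPM (-2.63 ± 0.12, adjusted p = 4.79e-07). At day 10, 2 of 20 were higher and 2 lower. The heart factor Nkx2-5 fell from 18.7 and 15.5 CPM to 0.243 and 0.437 CPM (-5.65 ± 0.40, adjusted p = 0.00443) and Hey2 fell (-1.46 ± 0.25, adjusted p = 0.0268). With IWR1, 1 was higher and 7 lower than in untreated KO, among them Tgfbr2 (-1.84 ± 0.34, adjusted p = 0.0222), with Nkx2-5 higher (2.13 ± 0.39, adjusted p = 0.0212). Srf itself stood at 48.2 and 50.3 CPM in the day 10 control, 37.2 and 34.7 CPM in KO and 37.5 and 45 CPM with IWR1.

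Genes of light chain phosphorylation and its control, 17 in all, gave 4 higher and 2 lower at day 3 and 3 higher and 5 lower at day 5. The shares called, 35.3% and 47.1%, were near the 32.9% and 43.5% of all genes. The soluble guanylate cyclase gene Gucy1a1, a nitric oxide receptor subunit that relaxes smooth muscle, fell at day 5 from 30.1 and 26.4 CPM to 9.93 and 4.97 CPM (-1.93 ± 0.31, adjusted p = 0.00125), and Prkg1, the cGMP-dependent kinase, fell too (-1.58 ± 0.25, adjusted p = 0.00096). Rhob, a small GTPase, rose at day 3 (0.57 ± 0.10, adjusted p = 0.00219) and at day 5 (0.71 ± 0.10, adjusted p = 0.000406). At day 10 1 gene was called higher and 0 lower: Ppp1r14a, an inhibitor of myosin phosphatase, rose from 3.78 and 2.70 CPM to 10.6 and 23.7 CPM (2.40 ± 0.43, adjusted p = 0.0311). With IWR1 0 were higher and 5 lower than in untreated KO, with Gucy1b1 (-1.15 ± 0.18, adjusted p = 0.0165), Prkg1 (-1.33 ± 0.23, adjusted p = 0.0197) and Rock2, a kinase that restrains myosin phosphatase (-1.17 ± 0.24, adjusted p = 0.0277), leading.

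SRF-responsive early and matrix genes were read from a list of 11. At day 3, 4 were higher and 2 lower, 54.5% called beside 32.9% of all genes, with the matrix gene Thbs1 rising (2.10 ± 0.23, adjusted p = 0.000586). The 2 lower were the early genes Fos (-1.96 ± 0.45, adjusted p = 0.0239) and Egr1 (-1.04 ± 0.23, adjusted p = 0.0178). At day 5, 7 were higher and 2 lower, 81.8% beside 43.5%, and the early gene Junb rose (1.92 ± 0.12, adjusted p = 3.03e-06). The 2 lower were again early genes, Fos (-1.21 ± 0.29, adjusted p = 0.0219) and Fosb (-1.99 ± 0.33, adjusted p = 0.00591). At day 10 1 was higher and 0 lower, the immediate early gene Fos, which rose from 11.7 and 11 CPM to 23.3 and 30.1 CPM (1.23 ± 0.22, adjusted p = 0.0307). With IWR1 0 were higher and 5 lower than in untreated KO, among them Fos (-1.65 ± 0.23, adjusted p = 0.0123) and the matrix gene Ccn1 (-1.30 ± 0.20, adjusted p = 0.0159). The medians were 0.22, 1.30, 0.53 and -1.24 in these comparisons.

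Paralogs of the members, 26 in all, were read beside them. Of 21 tested at day 3, 3 were higher and 2 lower, 23.8% called beside 32.9% of all genes, with Tagln2, the transgelin of non-muscle cells, rising (0.53 ± 0.06, adjusted p = 0.00022). At day 5, 3 were higher and 8 lower, 52.4% beside 43.5%, with Tagln2 rising (1.49 ± 0.06, adjusted p = 3.14e-07) and Tmod1, a tropomodulin that caps actin filaments, falling (-3.99 ± 0.42, adjusted p = 8.7e-05). Of 24 tested at day 10, 0 were higher and 6 lower, 25% beside 5.27%, led by Lmod2, the heart leiomodin (-4.42 ± 0.43, adjusted p = 0.00709), Actc1 and Mylk3. With IWR1, 2 were higher and 2 lower than in untreated KO, 16.7% beside 13.9%, with Tagln3, a neuronal transgelin, rising (3.22 ± 0.29, adjusted p = 0.00675) and Smtnl2 falling (-1.38 ± 0.18, adjusted p = 0.0114).

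Markers of other cell types also differed at the early days, and their part in the members' differences was not tested. Of all genes tested between KO and control, 32.9% were called at day 3, 43.5% at day 5 and 5.27% at day 10. At day 3 the 8 epithelial and myoepithelial markers summed to 761 to 780 CPM in control and 1270 to 1300 CPM in KO, with 4 of 5 tested called higher and 1 lower. Krt5, Krt14 and Trp63 of that list had 0 to 0.722 CPM at days 3 and 5 and were not tested there. The fibroblast markers summed to 408 to 422 against 307 to 313 CPM, with 2 of 12 called higher and 1 lower (25%, below the share of all genes). The one called lower was Pdgfra, a growth factor receptor also made by early mesoderm, at 73.4 and 73.2 CPM in control and 0.884 and 1.94 CPM in KO (-5.67 ± 0.36, adjusted p = 0.000177). Of the matrix genes in that list Col5a1 was at 22.9 to 33.3 CPM over the 4 day 3 libraries, whereas Dcn, Postn and Col3a1 had 0 to 7 counts each and Lum had 0. At day 5 the epithelial markers summed to 1520 to 1650 CPM in control and 2960 to 3260 CPM in KO, with 5 of 5 tested called higher. The epicardial markers summed to 285 to 307 against 249 to 254 CPM, with 1 higher and 5 lower of 7 tested (85.7%). The 9 pluripotency markers summed to 61 to 71.7 CPM in control and 322 to 611 CPM in KO, with 9 of 9 called higher. The fibroblast markers summed to 2920 to 3280 CPM in control and 1210 to 2490 CPM in KO, with 6 of 12 called lower (50%, near the share of all genes). The cardiomyocyte markers summed to 210 to 222 against 113 to 127 CPM, with 3 higher and 4 lower of 11 tested (63.6%). The pericyte and mural markers summed to 198 to 217 CPM in control and 283 to 284 CPM in KO at day 3, with 1 higher and 1 lower of 4 tested (50%). Notch3 was the one higher and held 280 CPM of that sum in each KO library, and Rgs5 was lower (-5.2 ± 1.1, adjusted p = 0.0235). At day 5 the list summed to 543 to 549 CPM in control and 368 to 590 CPM in KO, with 1 of 4 tested, again Notch3, called higher (25%, below the share of all genes). At day 10 they summed to 357 to 409 CPM in control and 143 to 225 CPM in the libraries labelled KO, with 2 of 7 called lower (28.6%). The endothelial list gave 0 higher and 1 lower of 7 at day 3 (14.3%, below the share of all genes) and 0 called at days 5 and 10. The skeletal muscle list gave 1 higher and 1 lower of 5 at day 3 (40%), 2 and 1 at day 5 (60%), and 1 higher and 0 lower of 6 at day 10 (16.7%).

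The 9 members did not move as a unit. Over the 8 libraries of days 3 and 5, Pearson's r of a member with the mean log2 CPM of all members, itself included, ran from -0.728 for Cnn1 to 0.927 for Myocd, and over the 6 day 10 libraries from -0.698 for Tagln to 0.839 for Myl9. Genes whose pattern was most like that mean at days 3 and 5, among 10597 protein-coding genes ranked with a mean of at least 5 CPM, were Tgm2 (r = 0.991), Dkk3 (0.986), Cnn2 (0.985), Josd1 (0.983) and Elmo2 (0.983). At day 10, among 11274 ranked, they included Arhgef16 (r = 0.998), Gjb2 (0.996), Gstm1 (0.995) and Cgn (0.994). The libraries of a group share their source, so these values describe the libraries and are given without a test.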

How the data were processed

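RNA sequencing libraries were read from the deposited tables of estimated counts, one for days 3 and 5 and another for day 10, which the authors made with kallisto 0.46.2 on mm10, per the submitters' processing notes. The values are whole numbers, used as deposited. Per the labels' protocols the kit was TruSeq RNA or stranded mRNA, so strand of counting is unsettled. Symbols came from GENCODE vM21, with 35968 identifiers matched and 79 not.

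edgeR 4.0.16, run under R 4.3.3, fitted the tables separately (filterByExpr, TMM, robust quasi-likelihood F-test, two-sided, Benjamini-Hochberg over all genes tested, threshold 0.05). The fits held 14430 genes with 4 residual degrees of freedom, and 17022 genes with 3. CPM used TMM library sizes, and CPM per kilobase the union of exons. SE was the log2 fold change over the root of F. The scripts were tested on simulated data.

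The 9 members and 13 further gene lists were chosen with earlier results of these data known. All members were named in every contrast, and from each other list up to 3 genes by smallest unadjusted p. Paralogs were named beside their member, and up to 5 genes per table by likeness. A few genes that these rules pick are not reported here. A few further values (Srf, Cnn2, Col5a1, Krt5, Krt14, Trp63, and Fos, Fosb and Egr1 at the early days) were chosen after they were seen. Alternatives were DESeq2 1.42.0, RLE scaling, no filter, a replicate block, only the groups compared, paralog sums and leaving out each library, where the lone library is assumed to vary like the other groups.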

Additional observations from a re-analysis of the deposited data

Results flagged for a closer look

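The difference between Foxk1 KO and control changed from day 3 to day 5 for 4 members, by the interaction term of the edgeR fit to 8 libraries, on the log2 scale. The change was 1.1291 for Cnn1 (adjusted p = 0.00382), which was higher in KO on both days. It was -2.0467 for Myl9 (adjusted p = 0.00209), which was higher in KO at day 3 and lower at day 5. It was -2.7857 for Myocd (adjusted p = 0.015), from 3 control counts at day 3, and -0.4782 for Smtn (adjusted p = 0.0464). The Myocd and Smtn calls were lost without single libraries, as given above.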

How the results depend on the processing

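Fitting only the groups compared gave 4 members called at day 3, 2 at day 5 (Tagln, Myl9 and Smtn lost), 1 for IWR1 against KO (Acta2 lost) and 8 for day 5 against day 3 in control, and it gives no separate value for the interaction. Calls over all genes moved under that fit too, as given below for day 3 and for IWR1 against KO. Shares of all genes under it are not reported here, so these counts are not read as a result about the members. DESeq2 gave 2 for the interaction, Myocd and Smtn being lost. Leaving out 1 library at a time gave 1 to 2 members called at day 3, 1 to 6 at day 5, 2 to 3 at day 10, 1 to 2 for IWR1 against KO, 1 to 4 for IWR1 against control, 4 to 6 and 3 to 6 for the courses in control and KO, and 2 to 6 for the interaction. Calls over all genes moved in both courses too, so these counts are not read as a result about the members. Sums with paralogs had the opposite sign for Acta2 at day 10 (-1.56). So did those for Myl9 at day 10 (0.14) and over the KO course (0.067). Such sums also hold the counts of other genes. With each library left out, Acta2 (0.63 to 0.65) and Myl9 (-2.89 to -2.77) kept their day 10 directions. Direction turned for Tagln over the KO course, which ranged from -0.42 without day 5 KO library 1 to 0.54 without library 2. Uncalled values also crossed 0 when a library was left out, such as Lmod1 at day 5 (-0.95 to 0.24), Mylk at day 5 (-0.60 to 0.81) and day 3 (-0.73 to 0.11), Acta2 at day 3 (-0.60 to 0.06), Tagln for IWR1 against KO (-1.001 to 0.15) and for the interaction (-0.15 to 0.81), and Smtn for IWR1 against control (-0.80 to 0.05). Causes were not tested.

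Deviations of same-numbered libraries had r from -0.014 to 0.066 at days 3 and 5. At day 10 r was 0.392 for control with KO with IWR1, and -0.495 and -0.492 for the pairs with KO, so the numbers were not taken to pair the libraries. With the replicate block, IWR1 against KO gave 1 member called, Acta2 being lost (adjusted p = 0.0726). Under it Myl9 in the control course (0.06) and Smtn in the interaction (0.0555) were lost, Lmod1 was gained at day 3 (0.0195) and in the interaction (0.0273), and 62 of the member values kept direction and call.

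Over all genes, 4741 called at day 3 became 3010 with DESeq2 and 7334 with only the groups compared. At day 10, 897 became 1981 with DESeq2 and 1737 unfiltered. For IWR1 against KO, 2358 became 4229 with DESeq2, 3697 unfiltered, 1233 with the block and 1001 with only the groups compared. For IWR1 against control, 1553 became 3402, 3093 unfiltered and 948 with the block, and for the interaction 3496 became 2313 with DESeq2. Without 1 library the counts ranged from 2520 to 2572 at day 3, 4030 to 7565 at day 5, 63 to 838 at day 10, 548 to 3056 for IWR1 against KO, 280 to 2145 for IWR1 against control and 2049 to 5621 for the interaction, so the backgrounds move with the libraries. Depth limits Myh11 at days 3 and 5, and Myocd, Lmod1 and Mylk at day 3.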
